A study of Mus musculus with 3 samples.

Results

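The circadian clock genes described here are Per1, Per2, Per3, Cry1, Cry2, Arntl (also written Bmal1), Clock, Dbp, Tef and Bhlhe40. Their open chromatin is the set of peaks that overlap the span of each gene on mouse genome GRCm38 or the 10 kb on either side of it. By this rule 21 of the 12413 peaks of the series belong to the 10 genes, and the rule uses positions and no measured value. FAIRE-seq, which recovers DNA that formaldehyde has not tied to protein, was run on whole uteri of wild-type C57BL/6J mice. The females were 6 to 10 weeks old, were mated with fertile males and received no treatment. All 3 samples form 1 group, taken on gestation day 4 with blastocysts present in the uterine flush. A whole uterus mixes epithelium, glands, stroma, smooth muscle, vessels and immune cells, so a weak peak in all cells and a strong peak in few cells cannot be told apart. The peak list names no sample, the depth of the libraries is unknown, and no value below carries an error between mice.

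The clock is a feedback loop within each cell. BMAL1 (from Arntl) and CLOCK form a dimer that binds E-boxes and activates the Per and Cry genes, whose proteins return to the nucleus and silence the dimer. Outputs of the loop such as Dbp and Tef encode transcription factors that bind D-boxes, and Bhlhe40 encodes a repressor that binds E-boxes. Clock genes are expressed in the rodent uterus, and female mice without Bmal1 are infertile. The time of day of tissue collection is not given in the sources used here, and a single day of gestation was sampled.

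Promoter sequences from RefSeq (build GRCm38.p6, 250 bases before to 50 bases after a start) were found for 8 of the 10 genes, in 13 windows. No window was found for Per2 or Bhlhe40. Each window was searched on both strands for 6 motifs: the E-box CACGTG, the E-prime-box CACGTT, the D-box TTATGTAA or TTACGTAA, the RORE core TAGGTCA, the CRE TGACGTCA, and a steroid response element with the arms GNACA and TGTNC separated by any 3 bases. A RORE is bound by the nuclear receptors of the ROR and REV-ERB families. No 2 matches in these windows overlapped. The sequences below run 5′ to 3′ on the strand of the gene, with every motif match in capitals. They show the start with the strongest peak (Tef), a start with a pair of D-boxes (Per3), starts with E-boxes under a wide peak (Cry1) and at the edge of a weak peak (Per1), a start with a RORE core inside its peak (Arntl), and a start with no peak over it and none of the motifs (Dbp).
Tef, first start (chr15:81802423-81802722, plus strand): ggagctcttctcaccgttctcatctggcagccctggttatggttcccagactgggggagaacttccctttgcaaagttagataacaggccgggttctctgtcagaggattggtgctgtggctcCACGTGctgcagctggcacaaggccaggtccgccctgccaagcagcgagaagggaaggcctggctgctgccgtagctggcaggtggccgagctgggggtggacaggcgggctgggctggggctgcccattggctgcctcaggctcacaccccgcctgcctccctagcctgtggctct
Per3 (chr4:151044616-151044915, minus strand): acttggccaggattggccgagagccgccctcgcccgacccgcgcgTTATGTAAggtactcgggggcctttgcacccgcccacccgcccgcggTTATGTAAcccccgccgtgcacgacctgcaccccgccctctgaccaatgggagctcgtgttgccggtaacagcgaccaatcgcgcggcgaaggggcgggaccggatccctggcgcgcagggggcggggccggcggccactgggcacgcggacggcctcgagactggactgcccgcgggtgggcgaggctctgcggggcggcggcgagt
Cry1 (chr10:85185005-85185304, minus strand): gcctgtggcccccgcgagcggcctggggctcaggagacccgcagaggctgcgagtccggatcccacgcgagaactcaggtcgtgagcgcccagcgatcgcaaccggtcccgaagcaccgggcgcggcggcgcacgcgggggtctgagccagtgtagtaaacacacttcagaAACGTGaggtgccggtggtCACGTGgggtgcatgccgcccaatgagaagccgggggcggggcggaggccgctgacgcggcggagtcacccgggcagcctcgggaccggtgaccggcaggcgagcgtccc
Per1, first start (chr11:69098699-69098998, plus strand): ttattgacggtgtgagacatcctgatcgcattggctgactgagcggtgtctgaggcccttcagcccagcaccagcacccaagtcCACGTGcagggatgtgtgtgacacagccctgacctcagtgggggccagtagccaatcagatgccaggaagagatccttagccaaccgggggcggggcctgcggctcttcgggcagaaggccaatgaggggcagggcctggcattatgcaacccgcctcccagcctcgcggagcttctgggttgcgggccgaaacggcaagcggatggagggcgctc
Arntl, second start (chr7:113207261-113207560, plus strand): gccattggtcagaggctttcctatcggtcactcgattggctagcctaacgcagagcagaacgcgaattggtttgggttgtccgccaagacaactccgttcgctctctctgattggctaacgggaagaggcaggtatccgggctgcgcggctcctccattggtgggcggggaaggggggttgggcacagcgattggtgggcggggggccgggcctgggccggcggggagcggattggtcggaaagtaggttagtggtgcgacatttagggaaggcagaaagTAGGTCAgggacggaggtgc
Dbp (chr7:45704997-45705296, plus strand): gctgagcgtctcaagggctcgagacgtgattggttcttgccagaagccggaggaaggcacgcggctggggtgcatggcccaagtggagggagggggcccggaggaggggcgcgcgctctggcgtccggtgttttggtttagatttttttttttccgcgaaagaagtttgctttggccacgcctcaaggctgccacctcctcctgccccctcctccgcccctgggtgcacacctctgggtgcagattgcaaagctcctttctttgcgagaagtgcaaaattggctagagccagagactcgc

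Every one of the 10 clock genes had open chromatin in the gene or within 10 kb, where 57.6% of all 21523 protein-coding genes did. Among the 15031 protein-coding genes whose span lies between those of Dbp and Arntl, the shortest and the longest of the 10, the share was 64.1%. A peak overlapped the 1 kb around an annotated end of the gene at 7 of the 10, against 44.5% of protein-coding genes. Those were Per2, Per3, Cry1, Cry2, Clock, Tef and Bhlhe40. A peak lay over at least one 300-base promoter window of 7 of the 8 genes with such a window, against 41.5% of the 17274 protein-coding genes with one. Dbp was the exception. For 7 of the 10 clock genes the gene and its flanks held 2 or more peaks, against 19.9% of protein-coding genes. That share was not matched for length: the median span was 36.9 kb for the 10 genes and 17.4 kb for all protein-coding genes. Nor was it matched for close neighbours: Per2, Cry2 and Dbp reached 2 or more only with peaks at ends or starts of other genes. The windows of the 10 genes held 3.20 peaks per 100 kb, and those of the 18 other clock genes described below held 1.29. Over the windows of all protein-coding genes the value was 1.23 per 100 kb, with peaks shared by neighbouring genes counted for each. These are counts in 1 list with no test, and the genes were chosen with earlier results of the list known.

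**Figure D1:**
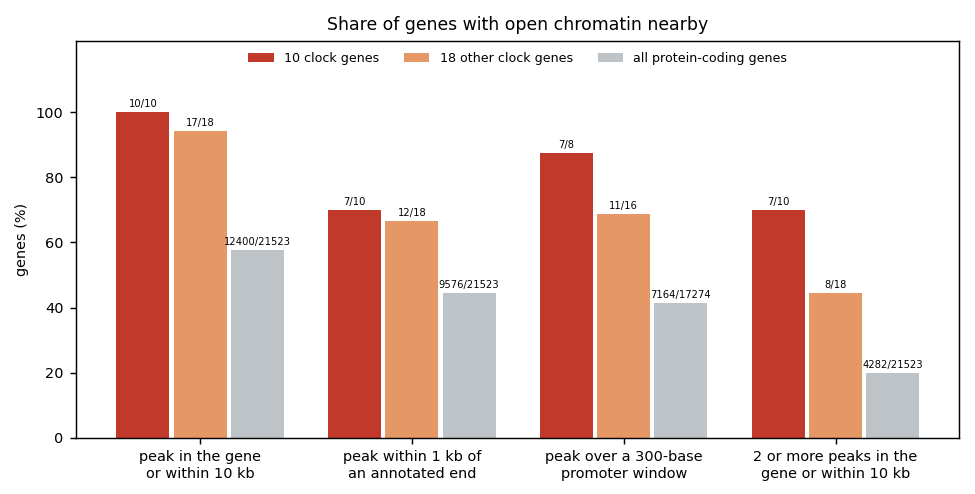
Share of genes in percent with open chromatin, by 4 definitions, for the 10 clock genes (red), 18 other genes of the clock pathway (orange) and all protein-coding genes (grey), with the counts above each bar. The clock genes stand at 10 of 10, 7 of 10, 7 of 8 and 7 of 10, and all protein-coding genes at 57.6%, 44.5%, 41.5% and 19.9%.

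Not all 21 peaks lay at the clock genes themselves. By the position of the summit, 9 peaks at 7 genes lay within 1 kb of a RefSeq start of the clock gene, and 1 more lay at an annotated end of Per2. Another 2 lay inside a clock gene away from its ends (Per1 and Dbp), and 2 lay in the flanks of Bhlhe40. The remaining 7 peaks, in the windows of Per1, Per2, Cry2 and Dbp, lay within 1 kb of an end or start of another protein-coding gene. Without those 7, each of the 10 genes still had a peak. For Per3 this rests on the order of the placing, in which an own start comes first. Its only peak also lay 227 bp from Gm38529, and without it Per3 would have none. The authors' fold enrichment, the height of a peak over its local background, had a median of 6.72 over the 21 peaks (range 3.46 to 12.8), against 5.80 over all peaks. At the clock genes' own starts the median was 8.10 over 9 peaks, against 6.12 over the 8137 peaks within 1 kb of any protein-coding start. The strongest peak in each window had a median of 8.06, against 6.61 for the 12400 protein-coding genes with a peak. The 2 medians are not fully alike, since a highest value rises with the number of peaks it is taken from. The median number of peaks was 2 per clock gene and 1 over all protein-coding genes. At 2 of the 10 clock genes the strongest peak lay at another gene's end. Peak width had a median of 409 bp over the 21 peaks and 427 bp over all peaks.

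**Figure D2:**
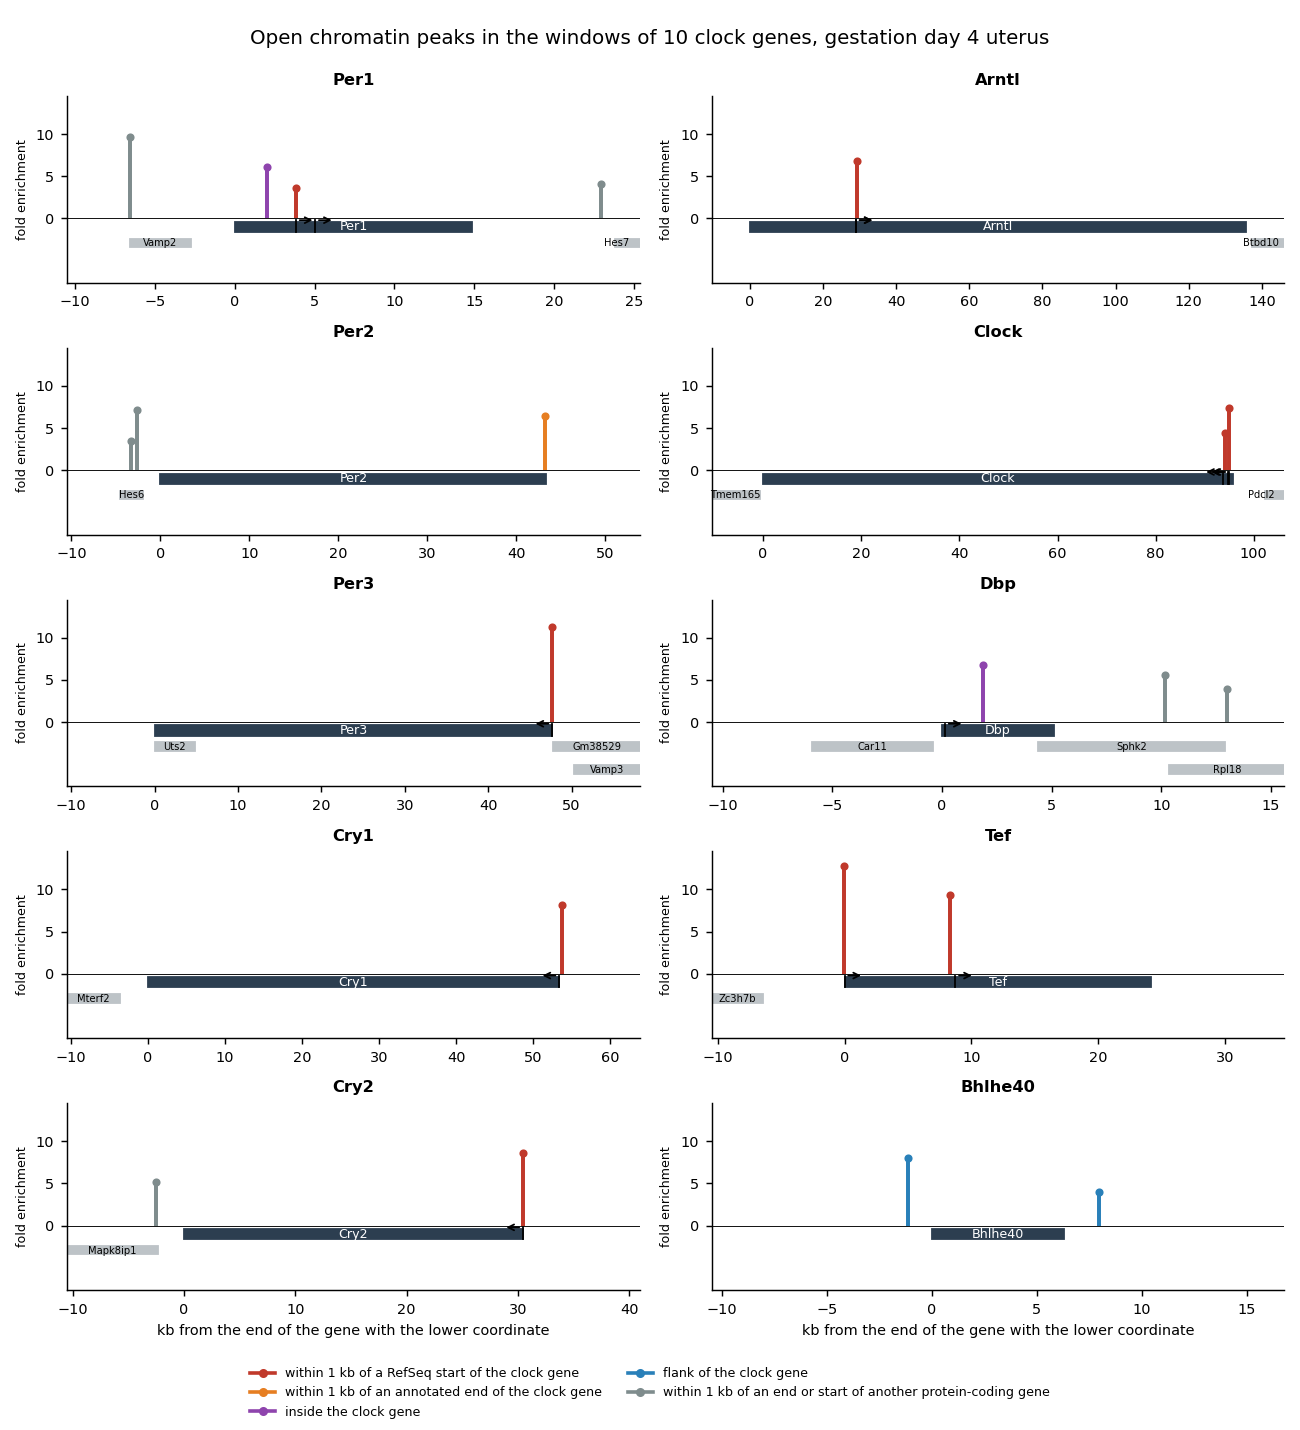
Fold enrichment (vertical axis) of each peak against its distance in kb from the lower-coordinate end of each clock gene, drawn for 10 genes on their own horizontal scales. Dark boxes are the clock genes, grey boxes are protein-coding neighbours, arrows are RefSeq starts, and colours give the place of the summit; red stems stand at the starts of 7 genes, grey stems at neighbours of Per1, Per2, Cry2 and Dbp.

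The activators of the loop each had open chromatin at a start. Clock, which encodes the DNA-binding partner of BMAL1, had 2 peaks only 78 bp apart. The higher one (chr5:76304203-76305136) had a pileup (coverage at the summit) of 107 and a fold of 7.41, and its summit lay 50 bp upstream of the first of 3 starts. It was 934 bp wide, wider than 96.6% of all peaks, and covered the first and second promoter windows whole. The lower one (chr5:76303724-76304124, 4.47-fold, pileup 62) lay 428 bp upstream of the third start, whose window it covered by 29 of 300 bases. None of the 6 motifs was found in the 3 Clock windows, which hold 42, 46 and 9 CpG dinucleotides.

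Arntl had 1 peak in a span of 136 kb and its flanks, the lowest density of the 10 genes at 0.642 per 100 kb. This peak (chr7:113207492-113207952) had a pileup of 68, a fold of 6.82 and a width of 461 bp. The annotated gene begins 29237 bp before the summit, so Arntl is not among the 7 genes with a peak at an annotated end. Its summit nevertheless lay 243 bp downstream of the first RefSeq start and 197 bp downstream of the second. The peak began beside the starts and ran into the gene, and it covered 23 and 69 of the 300 bases of the windows. The RORE core shown above lies 30 bases after the second start and inside the peak.

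The Period genes, which encode the repressors that carry the daily signal, differed among themselves. Per3 had a single strong peak (chr4:151044422-151044830, pileup 126, 11.3-fold), above 95.9% of all peaks in fold. Its summit lay 39 bp downstream of the start. The same summit lay 227 bp outside Gm38529, a predicted gene that begins beside Per3, so this peak cannot be assigned to Per3 alone. Of the pair of D-boxes in the Per3 window, which begin 205 and 158 bases before the start, the nearer one lay inside the peak and the farther one outside it. A window with 2 or more D-boxes is uncommon: 8 of 32851 promoter windows (0.0244%) hold one, a count made after the Per3 sequence had been seen.

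Per1, which glucocorticoid and cAMP signals can induce, had 4 peaks, the most of the 10 genes. The peak at its first start (chr11:69098787-69099032) was weak, with a pileup of 50 and a fold of 3.56, and 7.73% of all peaks were weaker. A stronger peak (chr11:69097009-69097305, pileup 86, 6.06-fold) lay 1838 bp upstream of that start, within the annotated span, which begins before the RefSeq start. These 2 peaks had a local background of 13.3 and 13.4, against a median of 8.59 over all peaks. A local background above that median was common at the clock genes, at 18 of the 21 peaks. The E-box in the Per1 window begins 166 bases before the start and straddled the edge of the weaker peak, with 2 of its 6 bases inside. The second Per1 start had no peak over its window. The strongest peak in the Per1 window (chr11:69088329-69088836, 9.65-fold, pileup 110) lay 5 bp from an end of Vamp2, which encodes a synaptic vesicle protein. The fourth (chr11:69117880-69118166, 4.06-fold) lay 903 bp from Hes7, a gene of the somite clock.

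Per2 had no promoter sequence here, so its ends are named by coordinate. A peak of 733 bp (chr1:91458989-91459721, pileup 75, 6.40-fold) spanned the end with the higher coordinate, with its summit 148 bp inside the gene. It was wider than 88.4% of all peaks. The other 2 peaks in the Per2 window were 103 bp apart at Hes6, with summits 86 bp upstream (7.15-fold) and 508 bp downstream (3.46-fold) of its start. Hence the highest fold in the Per2 window belonged to the neighbour, as it did for Per1.

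Both Cryptochrome genes, whose proteins are the main repressors of the dimer, had 1 peak at the start. The Cry1 peak (chr10:85184607-85185584, pileup 109, 8.10-fold) was the widest of the 21, at 978 bp, wider than 97.4% of all peaks. It covered the whole promoter window, although its summit lay 339 bp upstream of the start. The window holds both an E-box and an E-prime-box, 60 and 79 bases before the start, a combination found in 0.414% of all windows (136 of 32851, counted after the sequence had been seen). The Cry2 peak (chr2:92433860-92434390, pileup 99, 8.58-fold, 531 bp) lay with its summit 61 bp upstream of the start, and covered the window whole, with an E-prime-box 166 bases before the start. A weaker peak in the Cry2 window (5.12-fold, pileup 40) lay inside Mapk8ip1, 224 bp from an end of that gene.

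**Figure D3:**
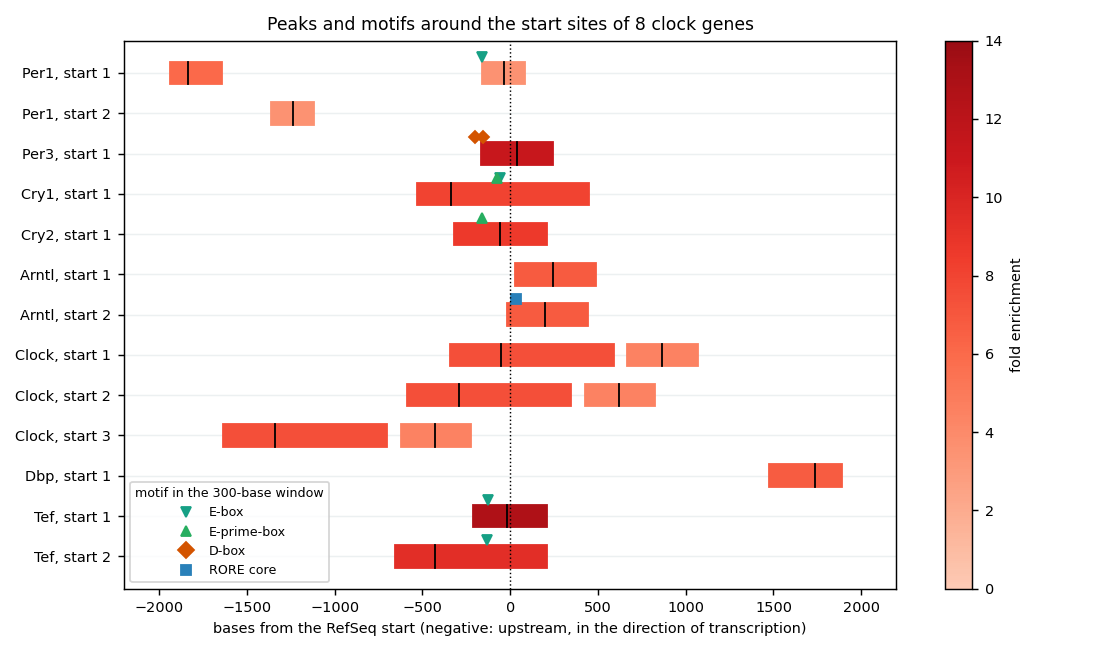
Peaks within 2.2 kb of 13 RefSeq starts of 8 clock genes, as boxes shaded by fold enrichment with a line at the summit; the horizontal axis is the distance in bases from the start in the direction of transcription, and symbols mark motif matches in the 300-base windows. Peaks lie over or beside the starts of 7 genes, while the Dbp peak lies 1738 bp downstream of its start.

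The output genes Dbp and Tef, which encode related transcription factors of the PAR bZIP family, were arranged differently. Tef had the highest fold of the 21 peaks: the peak at its first start (chr15:81802459-81802884) reached 12.8-fold with a pileup of 141, and ranked 167th of 12413 by fold. Its summit lay 18 bp upstream of the start. At the second start, 8741 bp further into the gene, a wider peak of 870 bp (chr15:81810755-81811624) reached 9.37-fold with a pileup of 135, its summit 427 bp upstream. Both Tef windows hold an E-box inside the peak, 127 and 138 bases before their starts. The first of them has 9 CpG dinucleotides, fewer than the median of 27 in windows under a peak.

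Dbp, the shortest of the 10 genes at 5.10 kb, had no peak over its promoter window. Its own peak (chr7:45706721-45707136, pileup 89, 6.72-fold, 416 bp) lay inside the gene, 1738 bp downstream of the start. The other 2 peaks in its window lay at the edges of the stretch where the neighbours Sphk2, a sphingosine kinase gene, and Rpl18, a ribosomal protein gene, overlap. One (5.62-fold) had its summit 60 bp upstream of a start of Sphk2 and 200 bp from an annotated end of Rpl18. The other (3.91-fold) had its summit 27 bp downstream of a start of Rpl18 and 96 bp from an annotated end of Sphk2, so neither peak can be assigned to 1 gene. The CpG count of the Dbp window, 18, lay between the medians of windows under a peak (27) and not under one (4).

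Bhlhe40, whose protein DEC1 is a repressor of the loop, had no summit in the gene. A peak of 8.02-fold (chr6:108659305-108659671, pileup 74) lay with its summit 1148 bp outside the lower-coordinate end and overlapped the 1 kb around that end with its edge alone. A weak peak (chr6:108668406-108668662, 4.00-fold, pileup 31) lay 1658 bp beyond the other end. Its local background of 7.0 equals, after rounding, the lowest of all peaks, so its fold is a ratio to that lowest value. The nearest end of another protein-coding gene was over 100 kb away from either summit, at 108365 bp and 114476 bp.

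**Figure D4:**
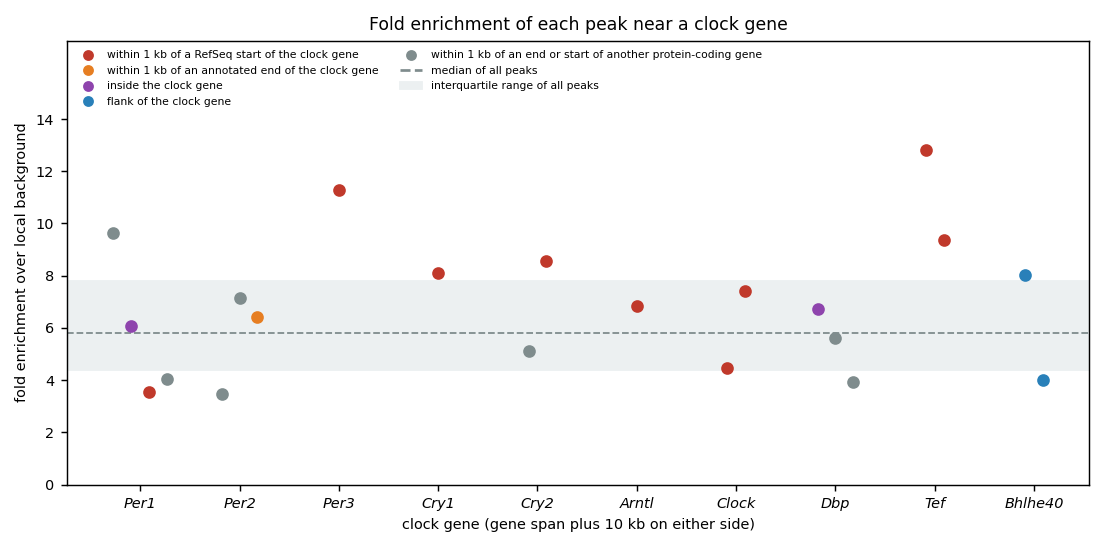
Fold enrichment of each of the 21 peaks by clock gene, coloured by the place of the summit, with the median of all 12413 peaks (dashed, 5.80) and their interquartile range (band, 4.37 to 7.79). Peaks at the starts of Tef and Per3 lie highest, at 12.8-fold and 11.3-fold, and the Per1 start peak lies below the band at 3.56-fold.

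Motif matches were counted in the same windows. The E-box was found in 4 of 13 windows (Per1, Cry1 and both of Tef), against 7.15% of 32851 promoter windows and 11.1% of the 9021 windows under a peak. With the E-prime-box added, 5 of 13 windows of 4 genes matched, against 11.4% of all windows and 15.9% of windows under a peak. Among the 20 windows of other clock genes described below, 2 held the E-box and 4 held either motif. The D-box (Per3) and the RORE core (Arntl) were each found in 1 of 13 windows, against 1.06% and 2.61% of all windows and 0.521% and 1.47% of windows under a peak, in the same order. No member window held the CRE, found in 1.79% of all windows and 3.75% of windows under a peak, or the steroid response element, found in 0.475% and 0.144%. The windows of 1 gene can overlap, as those of Arntl and Clock do, so 13 windows are fewer than 13 separate sequences. Composition moved with the peaks: clock windows had a median GC content of 64.0% and 22 CpG dinucleotides, windows under any peak 65.7% and 27, and windows with no peak 49.0% and 4. The part of base composition in these counts was not tested.

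The wider pathway was read from 18 other clock genes. A peak lay in the window at 17 of 18, against 57.6% of protein-coding genes, and at an annotated end at 12 of 18, against 44.5%. A promoter window lay under a peak at 11 of 16, against 41.5%. The gene without a peak was Rorb, a retinoid-related orphan receptor of brain and retina. Kinases and ubiquitin ligases that set the life of PER and CRY proteins had a gene-end peak at 5 of 6, against 44.5% of protein-coding genes: Csnk1d (8.11-fold), Gsk3b (5.54), Fbxl21 (5.25), Btrc (7.98) and Fbxw11 (6.93). Csnk1e, the other casein kinase gene, had its peak (4.47-fold) 15 bp from a RefSeq start that lies within the annotated span. Hlf, the third PAR bZIP gene, had a peak of 9.04-fold with its summit 12 bp upstream of its start, an arrangement shared with Tef and not with Dbp. Nfil3, a repressor that competes at D-boxes, had a peak of 4.47-fold 34 bp downstream of its start and none at an annotated end.

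The REV-ERB genes, which encode repressors acting at ROREs, differed. Nr1d2 had a wide peak of 1223 bp at its start (8.70-fold), whereas Nr1d1 had no peak at a start, with 4.06-fold inside the gene 1530 bp downstream and 4.71-fold 8077 bp upstream. Rora had 4 peaks in its window. A pair only 88 bp apart lay at the start, with summits 245 bp upstream (5.04-fold) and 181 bp downstream (5.73-fold), and a stronger one of 8.60-fold lay deep in the gene. Npas2, the paralogue of Clock, had 5.32-fold at its start. Arntl2, the paralogue of Arntl, had no peak at an end or at its RefSeq start. Its peak of 9.25-fold lay 9442 bp upstream of that start but inside the annotated gene, 1359 bp from an end. Bhlhe41, the paralogue of Bhlhe40, had its stronger peak off the start, at 8.49-fold and 1333 bp upstream. Usp2 (9.66-fold), Timeless (7.0) and Ciart (3.72), a repressor of the dimer, had gene-end peaks. The Timeless summit also lay 465 bp from an end of Mip, so that peak cannot be assigned to Timeless alone. Usp2 had a further peak of 8.24-fold with its summit 11 bp upstream of its RefSeq start.

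The 10 kb limit of the rule fell among peaks that lie near other genes. Just inside it, the Per1 peak at Hes7 lay 8038 bp from the gene (4.06-fold) and the Dbp peak at Rpl18 7895 bp from it (3.91-fold). Just outside it, a peak of 4.84-fold lay 10686 bp from Dbp beside Sec1, one of 6.85-fold lay 12507 bp from Per1 near Hes7, and one of 12.8-fold lay 12750 bp from Per3 at Vamp3. Bhlhe40 was the most isolated, with its next peak 116 kb away. As a check of the tissue, 8 of 14 uterine markers had a peak in their windows, a share near the 57.6% of all protein-coding genes, so this count does not set the uterine markers apart. The 8 were Pgr, Hoxa10, Hoxa11, Nr2f2, Gata2, Msx1, Des and Epcam, whereas Esr1, Foxa2, Acta2, Myh11, Krt8 and Vim had none. A gene-end peak was found at 5 of the 14, against 44.5% of all protein-coding genes. Of 5 markers of other organs, 0 had a peak, and so few genes cannot identify the tissue.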

How the data were processed

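Per the labels' protocols, 100 mg of frozen uterus was crosslinked in 1% formaldehyde for 9 min, sheared to about 300 bp and extracted with phenol-chloroform. FastQC, Bowtie2, HOMER and MACS2 and the build GRCm38.p5 are named, without versions, per the submitters' processing notes. None of the sources used here gives the call threshold, an input control or any pooling. The growth protocol speaks of 3 mice and the design text of 4.

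The deposited table gives, per the file headers, a pileup signal at each summit, a fold enrichment (a ratio to local background), and −log10 p-values and −log10 q-values, all as the authors computed them; the −log10 p-values were not used. Widths and positions are in bases, 1-based. Columns without names (6) were empty. Here the local background was computed as (pileup + 1) / fold − 1.

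Gene spans came from RefSeq GRCm38.p6, for names and neighbourhood. After leaving out 340 genes starting below 3 Mb (scaffold coordinates), 21523 protein-coding genes remained. Starts and strands came from 32851 RefSeq promoter windows. Peaks were counted on an overlap of 1 base. A summit was placed, in this order, within 1 kb of an own start, an own annotated end, or another protein-coding gene's end or start, then inside the gene or in its flank. Counting and motif search were tested on simulated data (Python 3.11.15, pandas 2.3.3). With 1 group and no sample named, no test between samples was made.

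The genes and lists were chosen with earlier results of these data known. All 10 genes are named with every peak; of 18 other clock genes (2 more on the list are not reported here), those with a gene-end peak and those with none nearby are named by rule, and the rest were named after their values were seen. Alternatives were the window, the overlap, the peak threshold, high-background peaks, the gene end used, close neighbours and the motif letters.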

Additional observations from a re-analysis of the deposited data

How the results depend on the processing

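The count of clock genes with a peak nearby stayed at 10 of 10 in the 7 alternatives run for it: 5 kb and 50 kb flanks (54.2% and 70.8% of protein-coding genes), summits in place of overlaps (57.5%), the 6207 peaks with the highest fold (36.2%) or the highest −log10 q (35.9%), no peaks of high local background (57.6%; 30 peaks left out), and peaks nearest an end of the gene itself (45.8%), the last chosen after seeing the data. Gene-end peaks were found at 6 of 10 with 500 bases around the ends (41.5% of protein-coding genes), 9 of 10 with 2 kb (47.7%) and with 5 kb (51.9%), and 7 of 10 among either set of 6207 peaks (26.2% and 26.0% of protein-coding genes). They were found at 7 of 8 genes with a RefSeq start (46.7% of protein-coding genes with one). Taking only ends with no other protein-coding gene end within 5 kb, 8 clock genes had such an end, and 6 had a peak there (33.5%). The number of peaks moved to 36 with 50 kb flanks and to 13 among the 6207 peaks with the highest fold, by construction of those settings. The median fold was 8.10 at gene ends, against 6.06 over all gene-end peaks. Matches of the E-box or E-prime-box were found in 4 of 8 genes (13.0% of all genes with a RefSeq window), in 3 with the E-box alone (8.09%), and in 3 when the match had to lie wholly inside a peak (3.89%). No paired analysis was possible because the peak table names no sample; for the same reason no mouse was left out in turn, and depth sets an unknown limit on which weak peaks were found.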
